A study of Mus musculus with 2 samples.

Results

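Kiss1, Tac2, Pdyn, Tacr3, Esr1 and Pgr were followed as 6 genes of the reproductive axis, out of 20210 genes in the authors' merged count table of 7418 hypothalamic cells. They were chosen by name, as genes of the KNDy neurons of the arcuate nucleus and of the steroid receptors those neurons carry. Kiss1 encodes kisspeptin, Tac2 encodes neurokinin B in mice and Pdyn encodes prodynorphin, the precursor of dynorphin. Tacr3 encodes the neurokinin B receptor, Esr1 the estrogen receptor alpha and Pgr the progesterone receptor.

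In KNDy neurons neurokinin B excites and dynorphin restrains a network that releases kisspeptin in pulses, and kisspeptin drives the neurons that secrete gonadotropin-releasing hormone. Neurokinin B acts back on the same cells through its receptor, and estradiol acts on them through the estrogen receptor alpha. The network paces luteinizing hormone pulses and takes part in the onset of puberty.

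The dHet library came from CD-1 mice that were heterozygous for Irx3 and Irx5 together and also carried Ins2-Cre and a tdTomato reporter, which was the Ai14 allele per the labels' protocols. The control library came from CD-1 mice with Ins2-Cre and tdTomato and no Irx3/5 change. Both were taken at postnatal day 10 from the arcuate nucleus and median eminence, and each was 1 pool of mice, given as 5 in the sample labels and as 5 to 6 in their protocol, from which viable tdTomato-positive cells were sorted. The cells seen are therefore those in which a Cre driven by the Ins2 promoter had switched on the reporter, and a member's level in unmarked neurons is not covered. The sexes of the pooled mice were not labelled.

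The dHet library held 3939 cells with a median of 17175 UMIs (unique molecular identifiers, 1 per captured RNA molecule), and the control library held 3479 cells with a median of 16508 UMIs. Neuron-like cells numbered 2902 in dHet and 2255 in control and fell into 20 clusters, built without the 6 genes. The targeted genes were sparse but lower in dHet: Irx3 had 43 UMIs in dHet and 95 in control over all cells, and Irx5 had 110 in dHet and 182 in control. Neither had a UMI in the KNDy-like cluster of either library. The libraries shared 4 cell barcodes. With 1 library per genotype there is no replicate check, so no test was made and every interval (exact, 95%) covers counting error only. Levels are UMIs per 1e6 UMIs of the same cells (CPM). In sums over many cells, fewer cells of a type and less RNA per cell cannot be told apart.

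The upstream sequences of Tac2 and Tacr3 are shown because both genes were concentrated in the same neuron cluster, of which the bHLH factor gene Nhlh2 was the second leading gene. Each is the 250 bases before the RefSeq start on the plus strand of GRCm38.p6, for Tac2 chr10:127724228-127724477 and for Tacr3 chr3:134828757-134829006. Neither stretch held an annotated exon base. Capitals mark the E-box CAGCTG, a palindrome that reads the same on both strands.
Tac2: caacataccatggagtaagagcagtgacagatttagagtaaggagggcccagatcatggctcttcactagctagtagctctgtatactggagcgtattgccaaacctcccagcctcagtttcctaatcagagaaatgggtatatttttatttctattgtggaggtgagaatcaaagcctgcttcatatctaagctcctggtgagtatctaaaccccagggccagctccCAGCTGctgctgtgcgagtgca
Tacr3: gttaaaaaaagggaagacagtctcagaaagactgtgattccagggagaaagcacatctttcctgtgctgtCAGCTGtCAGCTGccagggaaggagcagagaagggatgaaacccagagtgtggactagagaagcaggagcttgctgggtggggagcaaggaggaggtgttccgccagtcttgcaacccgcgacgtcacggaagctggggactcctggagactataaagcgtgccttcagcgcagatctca
The Tac2 window held 1 such E-box and the Tacr3 window held 2, while 13.0% of 32851 mouse windows of the same length held any. The other E-box searched, CACGTG, was in neither, against 6.02% of all windows. The core letters of an estrogen receptor site, GGTCA on either strand, were in neither window, against 35.2% of all windows. Windows of the other members were searched too. CAGCTG occurred 1 time in that of Esr1 (247 bases) and 0 times in those of Kiss1 (173 bases), Pdyn and Pgr. These are letter matches and show no binding, and a link of the E-box to the cluster was not tested.

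Of the 6 genes, 5 lay in exons shared with no other annotated gene in GENCODE M21. These were Tac2 on chromosome 10 (127724478 to 127731768, plus strand), Pdyn on chromosome 2 (129686565 to 129699844, minus strand) and Tacr3 on chromosome 3 (134829007 to 134934579, plus strand). The others were Esr1 on chromosome 10 (4611593 to 5005614, plus strand) and Pgr on chromosome 9 (8899833 to 8968611, plus strand). Kiss1 was the exception. On chromosome 1 the model ENSMUSG00000116158 (133321875 to 133329901, plus strand) has 779 exon bases, and 0 of them are free of overlap with other models on its strand. It had 0 UMIs in both libraries. The row called Kiss1 in the counts with any UMI belonged to ENSMUSG00000115958, which GENCODE M21 names Gm28040 and which overlaps the neighbouring Golt1a. That model has 158 of 741 exon bases that no other model shares. It had 6 UMIs in dHet and 8 in control, so kisspeptin RNA was close to uncountable in these tables, whatever its level in the cells.

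The cluster that fits KNDy neurons was led by Tac2 and Nhlh2, followed among its 10 leading genes by Esr1, Tacr3 and Nr5a2. It is called KNDy-like here on the strength of Tac2, Tacr3, Esr1, Nr5a2 and Nhlh2, since Kiss1 could hardly be counted and Pdyn did not set it apart. It held 106 dHet cells and 106 control cells. That was 3.65% (3.0 to 4.4) of dHet neurons and 4.70% (3.86 to 5.66) of control neurons, a ratio of 0.777 (0.588 to 1.03). The interval includes equal shares. The same comparison gave a ratio of 0.629 (0.436 to 0.909) among cells called female-like and 1.04 (0.622 to 1.73) among cells called male-like. Astrocyte markers summed to 119 CPM in the dHet cells of the cluster and 112 CPM in its control cells, and all 5 microglial markers were at 0 in both.

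Tac2 was by far the most concentrated of the countable genes. In the KNDy-like cluster it stood at 6190.3 CPM (6073 to 6309) in dHet, from 10656 UMIs, and at 6702 CPM (6589 to 6816) in control, from 13413 UMIs. The cluster held 90.9% of all neuronal Tac2 UMIs in dHet and 94.1% in control. The next highest cluster, led by Nkx2-4 and Gal, averaged 171 CPM over both libraries. There, 16 dHet cells and 9 control cells had any Tac2, and the 5 highest cells held 64.3% of the UMIs in dHet and 91.9% in control. Over the 20 neuron clusters the median was 4.59 CPM, close to the 2.86 CPM in dHet astrocytes and 4.09 CPM in control astrocytes, cells that should lack the gene. Astrocytes had a Tac2 UMI in 1.97% of dHet cells and 2.55% of control cells, at median depths of 6584.5 UMIs in dHet and 5864 UMIs in control, and never more than 1 UMI in a cell. A level of a few CPM is therefore read as background here.

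Within the cluster Tac2 varied widely from cell to cell. The median KNDy-like cell had 83 Tac2 UMIs in dHet, with a range of 0 to 353, and 106.5 UMIs in control, with a range of 0 to 452. No Tac2 UMI was seen in 7 dHet cells and 6 control cells of the cluster. The 6 dHet cells with a Kiss1 UMI all had Tac2, with 26 to 284 UMIs, and so did the 8 control cells, with 53 to 331 UMIs. No neuron outside the cluster had a Kiss1 UMI. Tacr3 and Nr5a2 were set beside the Tac2 level of the cell. Cells with at least 50 Tac2 UMIs had 47.1 CPM of Tacr3 in dHet and 61.0 CPM in control, and cells with fewer had 25.5 CPM in dHet and 35.6 CPM in control. Nr5a2, which encodes an orphan nuclear receptor, stood at 66.9 CPM in dHet and 85.3 CPM in control where Tac2 was high, and 92.1 CPM in dHet and 117 CPM in control where it was low. The counting intervals of high and low cells overlapped for both genes in each library. Pomc, a marker of another neuron type, had 19.8 CPM (12.7 to 29.5) in dHet and 25.6 CPM (18.2 to 34.98) in control where Tac2 was high, and 86.2 CPM (62.7 to 116) in dHet and 33.5 CPM (19.2 to 54.5) in control where it was low. Its part in these differences was not tested. The cells with few Tac2 UMIs also had fewer UMIs in all, with a median of 14269 in dHet and 16524.5 in control, against 16973 in dHet and 20428 in control in the cells with many.

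Pdyn was uneven across neurons, with the highest cluster at 20.8 times the median one, and the KNDy-like cluster was not its highest. Its level there was 27.9 CPM in dHet, where the cluster ranked 7 of 20, and 39.0 CPM in control, where it ranked 4. All other neurons together had 27.9 CPM in dHet and 25.2 CPM in control. A Pdyn UMI was seen in 34.9% of the cluster's dHet cells and 48.1% of its control cells. In other neurons the shares were 24.8% in dHet and 24.3% in control. Only 2.71% of neuronal Pdyn UMIs in dHet and 5.73% in control came from the cluster. The highest level was in the cluster led by Ppp1r17 and Fam19a4, with 206 CPM in dHet and 136 CPM in control. The clusters led by Adcyap1 and Cbln1 (74.4 CPM in dHet, 58.7 CPM in control) and by Nfib and Slc17a8 (40.6 CPM in dHet, 93.9 CPM in control) came next. The order of the 2 libraries differed between these clusters. Dynorphin's precursor was thus counted in 37 dHet cells and 51 control cells of the KNDy-like cluster, at most 3 UMIs in any cell.

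**Figure D1:**
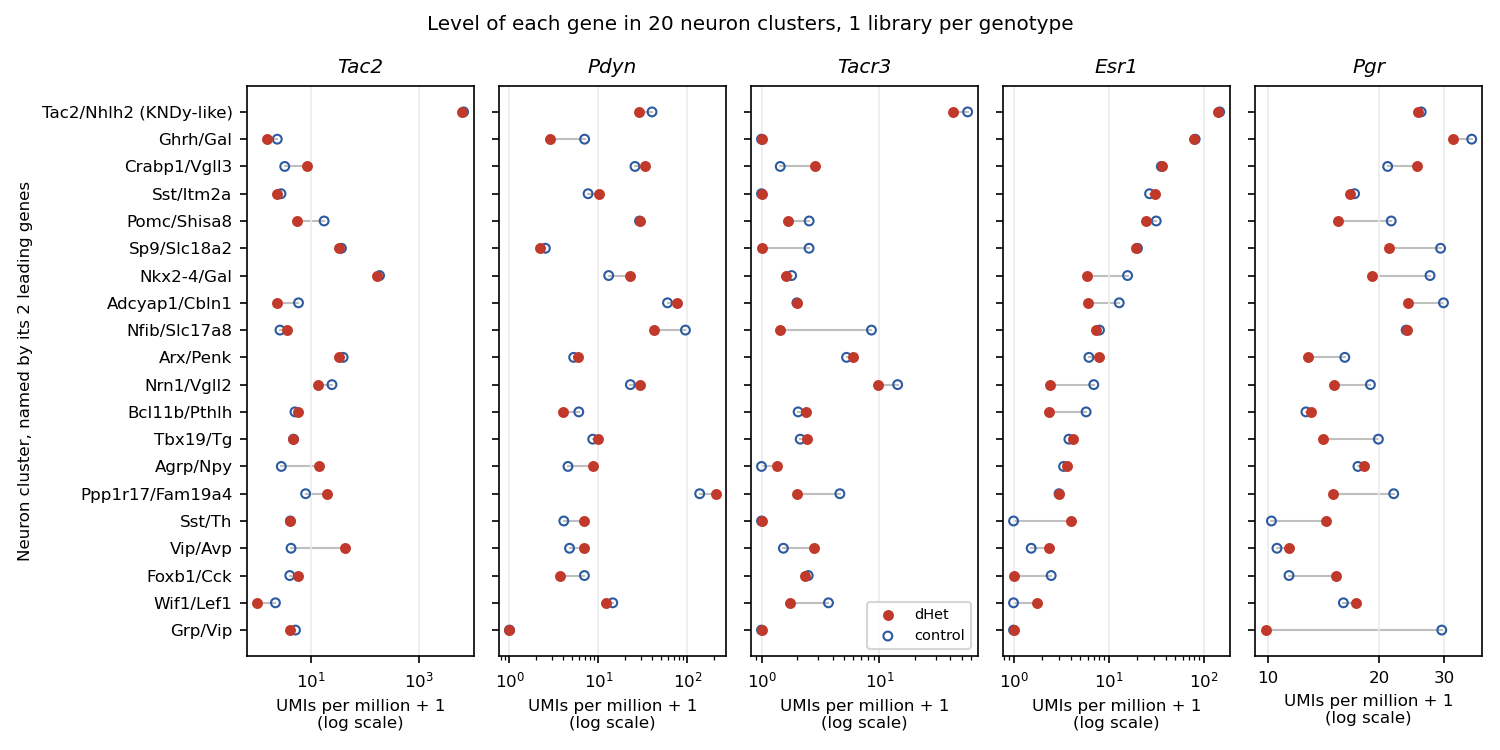
Level of 5 genes in each of the 20 neuron clusters, as CPM plus 1 on a log axis that differs between panels, with filled points for the dHet library and open points for the control library and clusters sorted by Esr1. Tac2 stood at 6190.3 CPM in dHet and 6702 CPM in control in the KNDy-like cluster and at 171 CPM or less over both libraries in the others, whereas Pgr varied little between clusters.

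Tacr3, the receptor gene, followed Tac2. It had 40.7 CPM (31.7 to 51.4) in dHet and 55.0 CPM (45.2 to 66.2) in control KNDy-like cells. The cluster led by Nrn1 and Vgll2 came second, at 8.81 CPM in dHet and 13.3 CPM in control, and the 20 clusters had a median of 1.19 CPM. The receptor was seen in 44.3% of KNDy-like cells in dHet and 58.5% in control, and in 2.18% of other neurons in dHet and 3.44% in control. All but 1 of the 47 dHet cells with Tacr3 in the cluster also had Tac2, as did all 62 control cells.

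Esr1 was graded over several known endocrine types. The KNDy-like cluster was highest, with 141 CPM (124 to 160) in dHet and 146 CPM (130 to 164) in control. The cluster led by Ghrh and Gal followed at 78.6 CPM in dHet and 80.5 CPM in control. Ghrh encodes growth hormone-releasing hormone. Next came the clusters led by Crabp1 and Vgll3 (35.5 CPM in dHet, 34.9 CPM in control), by Sst and Itm2a (29.4 CPM in dHet, 26.0 CPM in control) and by Pomc and Shisa8 (23.8 CPM in dHet, 30.7 CPM in control). The ranges of the last 2 overlapped. Esr2, the gene of the other nuclear estrogen receptor, had 0 UMIs in the KNDy-like cluster of both libraries, where a count of 0 allows up to 3 UMIs, or 1.74 CPM in dHet and 1.499 CPM in control. Prlr, the prolactin receptor gene, had 207 CPM in dHet and 249 CPM in control there.

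Pgr was nearly even across neurons. Its level ran over the 20 clusters from 10.0 to 32.3 CPM with both libraries summed, and the highest cluster was 1.92 times the median one. The highest was again the Ghrh and Gal cluster, with 30.6 CPM in dHet and 34.6 CPM in control, and the KNDy-like cluster had 24.4 CPM in dHet, where it ranked 2, and 24.98 CPM in control, where it ranked 6. Its range overlapped that of its neighbours in the order. Astrocytes had 1.07 CPM in dHet and 0.817 CPM in control, so the neuronal level was above the astrocyte level. Pgr is a known estrogen receptor target, and at this age its highest level was in the cluster that ranked 2 for Esr1. That level came from 65 UMIs in dHet and 52 in control. In the KNDy-like cluster, which was richest in Esr1, Pgr had 42 UMIs in dHet and 50 in control. A relation of Pgr to Esr1 was not tested.

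Cells with Tac2 and another member were more frequent in the KNDy-like cluster than in other neurons. The cluster was named partly by Tac2, Tacr3 and Esr1, so that excess followed from the choice of cluster. Tac2 alone was in 93.4% of its dHet cells and 94.3% of its control cells. In other neurons it was in 5.58% of dHet cells and 5.82% of control cells. Tac2 and Esr1 were found together in 85 of 106 dHet cells, which is 80.2% (71.3 to 87.3), and in 83 of 106 control cells, which is 78.3% (69.2 to 85.7). In other neurons they met in 0.966% of dHet cells and 1.40% of control cells. Thinned at random to 4000 UMIs per cell, 40.8% of 103 dHet cells and 40.0% of 100 control cells of the cluster had both. Some pairs without Tac2 had more of their cells among the far more numerous other neurons. Pdyn and Pgr met in 13 dHet and 20 control cells of the cluster and in 225 dHet and 210 control cells outside it, and Esr1 and Pgr in 25 dHet and 34 control cells of the cluster and in 162 dHet and 160 control cells outside it. All 5 of Tac2, Pdyn, Tacr3, Esr1 and Pgr were found in 6 dHet cells and 14 control cells of the cluster, and in 0 cells of either library once thinned (exact upper limits of 3.52% in dHet and 3.62% in control). In other neurons none of the 2796 dHet cells and none of the 2149 control cells had all 5 (exact upper limits of 0.132% in dHet and 0.172% in control). Depth limits such counts, since no cell of the cluster had more than 3 UMIs of Pdyn or 6 of Tacr3.

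Genes with the cluster pattern most like that of a member were found by Pearson correlation of log2(CPM + 5) over the 19 neuron clusters with at least 50 cells, among genes with at least 200 UMIs, given as a description. The clusters share libraries and sorting. Among these genes Tac2 was most like Lhfpl1 (r = 0.847), Lrrc17 (0.796) and Tacr3 (0.791). Kiss1, with too few UMIs for that limit, had r = 0.854 with Tac2. That likeness rested on the KNDy-like cluster, since without it r for Lhfpl1 was 0.018 and for Tacr3 0.202. Pdyn was most like Nptx2, which encodes a neuronal pentraxin (r = 0.860, and 0.884 without the highest Pdyn cluster). Esr1 was most like Htatsf1 (0.821), Deptor (0.803) and Timmdc1 (0.774), and Tacr3 was most like C1ql1 (0.879). Pgr was most like Nup160 (0.831), Rnf19a (0.819) and Osbpl6 (0.815). Among the members, Esr1 and Pgr had r = 0.662.

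Between genotypes, no member differed by 1.5-fold or more in the KNDy-like cluster, on the log2 scale with 5 CPM added. Among all 8015 genes with at least 50 UMIs there, 1.25% were that much higher and 2.16% that much lower in dHet. Tac2 was at 0.924 of control (0.900 to 0.948), a log2 difference of -0.11. In the 67 dHet and 85 control cells that had at least 2 of Kiss1, Tac2 and Nr5a2, with no cluster used, the Tac2 difference was -0.71, past 1.5-fold. Those cells were picked partly by Tac2 itself, and 48 of them in dHet and 70 in control lay in the cluster. The 2 Tac2 differences therefore cover unlike sets of cells. Esr1 was at 0.964 (0.810 to 1.15) and Pgr at 0.977 (0.632 to 1.502). The lower ratios belonged to Pdyn, at 0.715 (0.489 to 1.04) from 48 UMIs in dHet and 78 in control, and to Tacr3, at 0.740 (0.540 to 1.01) from 70 UMIs in dHet and 110 in control. Both intervals reach 1, so a difference was not detectable at this depth over all cells of the cluster. In cells called female-like the Tacr3 ratio was 0.641 (0.418 to 0.967), an interval below 1, and in cells called male-like it was 0.722 (0.400 to 1.27). Kiss1, with 6 UMIs in dHet and 8 in control, gave 0.872 (0.249 to 2.87), an interval too wide to limit a difference.

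In a single random draw at equal depth, Pdyn was seen in 7 dHet cells and 19 control cells of the cluster. The spread between draws was not measured. After every cell was thinned at random to 4000 UMIs, 6.80% (2.78 to 13.5) of 103 dHet cells and 19.0% (11.8 to 28.1) of 100 control cells had a Pdyn UMI. The intervals overlap, and the summed thinned level gave a log2 difference of -1.24, past 1.5-fold, against -0.42 unthinned. Before thinning the shares were 34.9% in dHet and 48.1% in control. Tacr3 was seen in 18.4% of thinned dHet cells and 23.0% of thinned control cells, Esr1 in 43.7% in dHet and 46.0% in control, and Pgr in 6.80% in dHet and 11.0% in control. The median KNDy-like cell had 16290 UMIs in dHet and 19327 in control before thinning, and 5.996% mitochondrial UMIs in dHet and 4.81% in control.

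Over all neurons the picture differed for Tac2 and Tacr3. Tac2 had 185 CPM in dHet and 269 CPM in control, a ratio of 0.688 (0.672 to 0.706) and a log2 difference of -0.53. In neurons outside the cluster its ratio was 1.05 (0.962 to 1.16). Single cells there held 85 and 106 Tac2 UMIs in dHet and 44 in control. The counting interval does not cover such uneven cells, and the ratio without them was not computed. The neuronal sum moved together with the share of KNDy-like cells, which was 3.65% of neurons in dHet and 4.70% in control, and with the level in the cluster. Tacr3 had 2.46 CPM in dHet and 4.28 CPM in control, a ratio of 0.575 (0.466 to 0.708), and its ratio was 0.608 (0.455 to 0.811) outside the cluster too. Its level outside was only 1.40 CPM in dHet and 2.29 CPM in control, as low as the levels read as background for Tac2. Outside the KNDy-like cluster, the Nrn1 and Vgll2 cluster, the second highest for Tacr3, was 4.34% of dHet neurons and 7.49% of control neurons. Pdyn had 27.9 CPM in dHet and 25.7 CPM in control (1.09, 1.01 to 1.17), Esr1 16.1 CPM in dHet and 18.5 CPM in control (0.868, 0.795 to 0.949) and Pgr 17.7 CPM in dHet and 19.6 CPM in control (0.902, 0.828 to 0.982). On the scale with 5 CPM added, no member passed 1.5-fold over all neurons, where 0.103% of 14495 genes were that much higher and 0.179% that much lower.

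**Figure D2:**
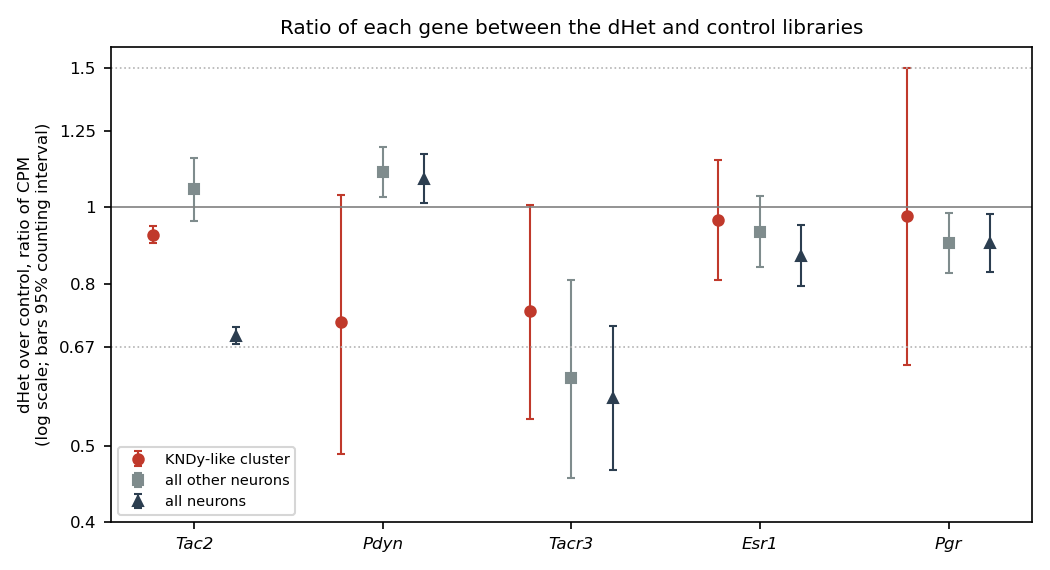
Ratio of CPM, dHet over control, for 5 genes in the KNDy-like cluster, in all other neurons and in all neurons, on a log axis with exact 95% counting intervals and dotted lines at 1.5-fold. Tac2 was at 0.924 within the cluster and 1.05 outside it but at 0.688 over all neurons, and Tacr3 lay below 1 in each. The Tac2 ratio outside the cluster includes single cells with many UMIs, which its interval does not cover.

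In single clusters outside the KNDy-like one, 42 pairs of member and cluster had at least 50 UMIs, and 4 were 1.5-fold or more higher and 5 lower in dHet. Of the 9, 5 were Tac2 pairs in which a few cells held most UMIs of a library. In the Vip and Avp cluster, where 1.44% of genes were that much higher, 1 dHet cell held 85 of 90 Tac2 UMIs, and in the Agrp and Npy cluster (0.934%) 1 dHet cell held 106 of 114. In the Pomc and Shisa8 cluster, where 1.09% of genes were that much lower, 1 control cell held 44 of 53. The highest cell held 23 of 35 dHet UMIs and 28 of 89 control UMIs in the Nrn1 and Vgll2 cluster, which had 1.25% lower, and 24 of 37 dHet UMIs in the Ppp1r17 and Fam19a4 cluster, which had 1.09% higher.

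Pdyn and Esr1 made up the others. Pdyn was at 0.432 of control (0.333 to 0.557) in the Nfib and Slc17a8 cluster, where 2.93% of genes were that much lower, and the 5 highest cells held 35.4% of its UMIs in dHet and 47.1% in control. It was at 1.78 (1.15 to 2.84) in the Nkx2-4 and Gal cluster, where 0.627% were that much higher. Esr1 was at 0.331 (0.172 to 0.609) there, from 16 UMIs in dHet and 37 in control, beside 1.43% of genes that much lower. In the Adcyap1 and Cbln1 cluster it was at 0.423 (0.270 to 0.652), from 35 UMIs in dHet and 60 in control, beside 1.15%.

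Among other genes of the axis, from lists that did not include the members, Npffr1 and Nr3c1 passed 1.5-fold in the KNDy-like cluster. Of all 8015 genes tested there, 1.25% were that much higher and 2.16% that much lower in dHet. Of the ligand, receptor and gonadotropin-releasing hormone list, 2 of 13 genes had the 50 UMIs needed. Npffr1, a receptor for RF-amide peptides such as gonadotropin-inhibitory hormone, had 26.7 CPM in dHet and 11.99 CPM in control, a ratio of 2.23 (1.33 to 3.82). Tacr1, the substance P receptor, had 13.9 CPM in dHet and 13.5 CPM in control. Kiss1r, the kisspeptin receptor, had 7 UMIs in dHet and 2 in control, and Oprk1, the dynorphin receptor, had 15 in dHet and 27 in control. Tac1 had 16 UMIs in dHet and 11 in control, and Penk, the enkephalin precursor gene, 1 in dHet and 3 in control. Gnrh1 and Gnrhr had 0 UMIs in the cluster of both libraries.

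Of the steroid receptor and coregulator list, 10 of 15 genes were tested, 4 higher and 6 lower, with none past 1.5-fold and a median log2 difference of -0.16 beside -0.04 over all genes. Pgrmc2 had 29.0 CPM in dHet and 41.5 CPM in control, and Ncoa1, a receptor coactivator, 33.7 CPM in dHet and 42.0 CPM in control. Of the puberty timing list, 7 of 11 were tested, 3 higher and 4 lower, with a median of -0.02. Mkrn3, whose loss causes early puberty in people, had 43.6 CPM in dHet and 38.5 CPM in control, and Nhlh2, 191 CPM in dHet and 224 CPM in control. Of the hormone receptor list, 6 of 12 were tested, 3 in each direction, and Nr3c1 alone passed 1.5-fold. This glucocorticoid receptor gene had 14.5 CPM in dHet and 28.5 CPM in control, a ratio of 0.510 (0.305 to 0.830), but a ratio of 1.04 over all neurons. Among peptide processing genes, Pcsk1, the prohormone convertase gene, had 107 CPM in dHet and 149.9 CPM in control (0.713, 0.590 to 0.860), and Cpe, the carboxypeptidase gene, 510.1 CPM in dHet and 386 CPM in control (1.32, 1.20 to 1.46). Slc17a6, the glutamate transporter gene of these excitatory neurons, had 422 CPM in dHet and 370.2 CPM in control.

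Immediate early genes, which respond to activity and to handling, were mostly lower in dHet. In the KNDy-like cluster 9 of 11 tested were lower, 4 of them past 1.5-fold, with a median log2 difference of -0.33. Of all genes tested there, 56.4% were not higher in dHet, 2.16% were 1.5-fold or more lower, and the median was -0.04. Fosb had a ratio of 1.49 (0.940 to 2.40) and Btg2 of 1.06 (0.796 to 1.42). Fos had 45.9 CPM in dHet and 136 CPM in control, and Egr4 5.23 CPM in dHet and 31.0 CPM in control. The lower Fos level was seen in cells called female-like, with 60.5 CPM in dHet and 207 CPM in control. In the 32 dHet and 35 control cells called male-like Fos had 30.7 CPM in dHet and 24.8 CPM in control. Over both sex calls Fos had only 76 UMIs in dHet and 262 in control. The male-like values have no interval here, so they do not exclude a lower level in dHet. Over all neurons 19 of 25 were lower, 8 of them past 1.5-fold, with a median of -0.45, beside 58.0% of all genes not higher, 0.179% that much lower and a median of -0.02. Their part in the differences of the members was not tested. With immediate early and heat shock genes out of the total, no member's log2 difference left its counting interval in either class. That step changes only the total by which UMIs are divided, so it cannot show what part these genes had.

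The cells carry their own sex, read from Xist and 4 Y-linked genes, and the mix differed between libraries. Of neurons, 65.0% in dHet and 50.2% in control were female-like (Xist and no Y-linked UMI), and 29.3% in dHet and 42.7% in control were male-like. In the KNDy-like cluster 64 dHet and 61 control cells were female-like, and 32 dHet and 35 control cells were male-like. The split by sex was chosen after values had been seen. It compares cells within a pool, and mice of a pool cannot be told apart.

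Tac2 and Esr1 were higher in female-like than in male-like KNDy-like cells, by nearly the same factor in both libraries. Tac2 stood at 7782 CPM in female-like and 3973 CPM in male-like cells of dHet, a ratio of 1.96 (1.87 to 2.06). In control it stood at 8469.8 CPM in female-like and 4253 CPM in male-like cells, a ratio of 1.99 (1.91 to 2.08). The median female-like cell had 115.5 Tac2 UMIs in dHet and 175 in control, and the median male-like cell had 65 in dHet and 57 in control, with broad overlap of the cells. Esr1 stood at 192 CPM in female-like and 70.4 CPM in male-like cells of dHet, a ratio of 2.73 (1.92 to 3.96), and at 201 CPM in female-like and 72.9 CPM in male-like cells of control, a ratio of 2.75 (2.02 to 3.81). Esr1 remained apart at equal depth. In cells thinned to 4000 UMIs it was seen in 55.7% (42.4 to 68.5) of female-like and 21.9% (9.28 to 40.0) of male-like cells of dHet, and in 61.7% (48.2 to 73.9) of female-like and 24.2% (11.1 to 42.3) of male-like cells of control.

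Prlr followed the same direction, with a female-like to male-like ratio of 2.15 (1.64 to 2.86) in dHet and 1.71 (1.38 to 2.12) in control. Tacr3 showed no such difference, at 1.00 (0.571 to 1.80) in dHet and 1.13 (0.745 to 1.74) in control, with intervals that do not exclude a higher or lower level. Pdyn had ratios of 1.36 (0.690 to 2.82) in dHet and 1.60 (0.942 to 2.81) in control, and Pgr 2.20 (0.991 to 5.55) in dHet and 0.856 (0.461 to 1.62) in control. Of the Kiss1 UMIs in cells with a sex call, 5 were in female-like and 0 in male-like cells of dHet, and 6 in female-like and 2 in male-like cells of control.

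**Figure D3:**
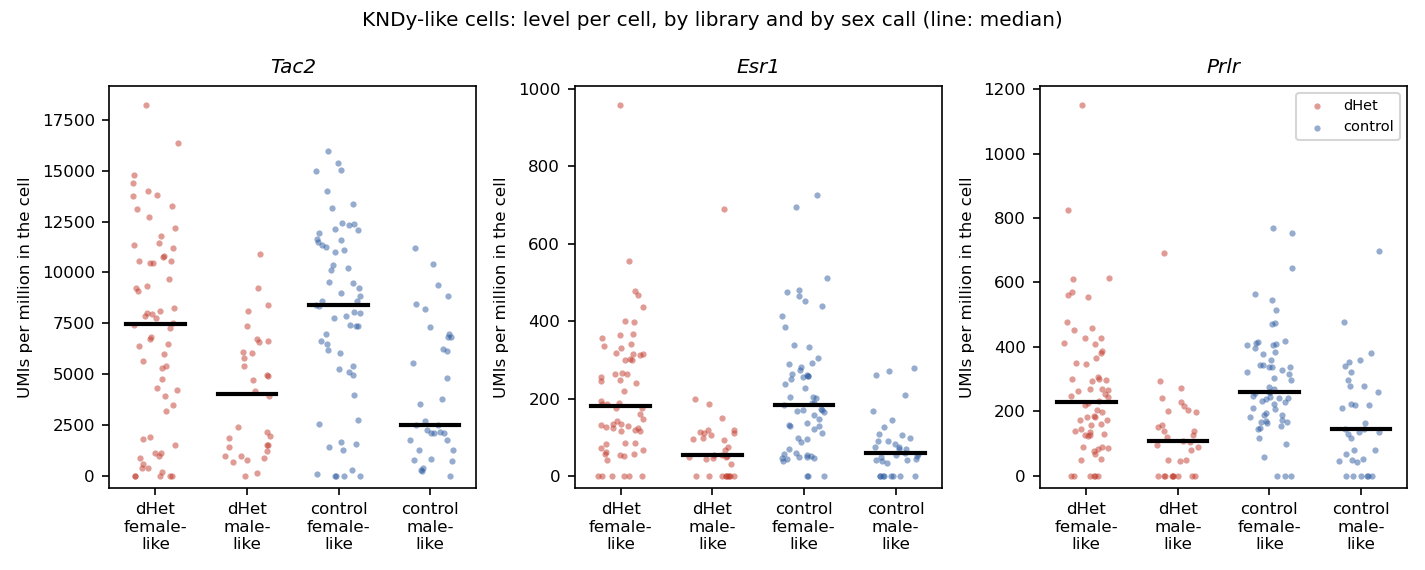
Level per cell of Tac2, Esr1 and Prlr in the KNDy-like cluster, as CPM in the cell, with 1 point per cell, a line at the median, and columns by library and sex call. For each gene the female-like median lay above the male-like one in both libraries, and the cells overlapped in each panel.

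Past 1.5-fold in this contrast were 4.96% of 4963 genes higher and 3.95% lower in female-like cells of dHet, and 5.37% of 5769 genes higher and 4.02% lower in control, sex-call genes left out. Both libraries together put 67 of 4893 genes (1.37%) higher in each, among them Tac2 and Esr1, and 61 (1.25%) lower in each. Of the 67, Lhfpl1, already named for its likeness to Tac2 across clusters, ranked highest by the smaller of its 2 library values, with log2 differences of 2.74 in dHet and 2.75 in control. Lmo3, a transcription cofactor gene picked out after its value was seen, led the 61 with -2.43 in dHet and -2.08 in control.

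Outside the KNDy-like cluster Esr1 had a female-like to male-like ratio of 1.07 (0.913 to 1.25) in dHet and 1.01 (0.864 to 1.18) in control, intervals that did not overlap those of the cluster. In the Ghrh and Gal cluster, second for Esr1, the ratio was 1.11 (0.796 to 1.56) in dHet and 1.69 (1.14 to 2.55) in control. Tac2 outside the cluster had 1.38 (1.18 to 1.62) in dHet and 0.768 (0.667 to 0.884) in control, in opposite directions. Single cells there held 85 and 106 Tac2 UMIs in dHet and 44 in control, which these counting intervals do not cover. The part of such cells in the 2 ratios was not tested, so no sex difference is read from them. Within each sex call the genotype ratio of Tac2 in the cluster stayed near the pooled one, at 0.919 (0.892 to 0.947) in female-like and 0.934 (0.883 to 0.988) in male-like cells. Over all neurons it was 0.543 (0.527 to 0.559) in female-like and 0.831 (0.788 to 0.876) in male-like cells.

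**Figure D4:**
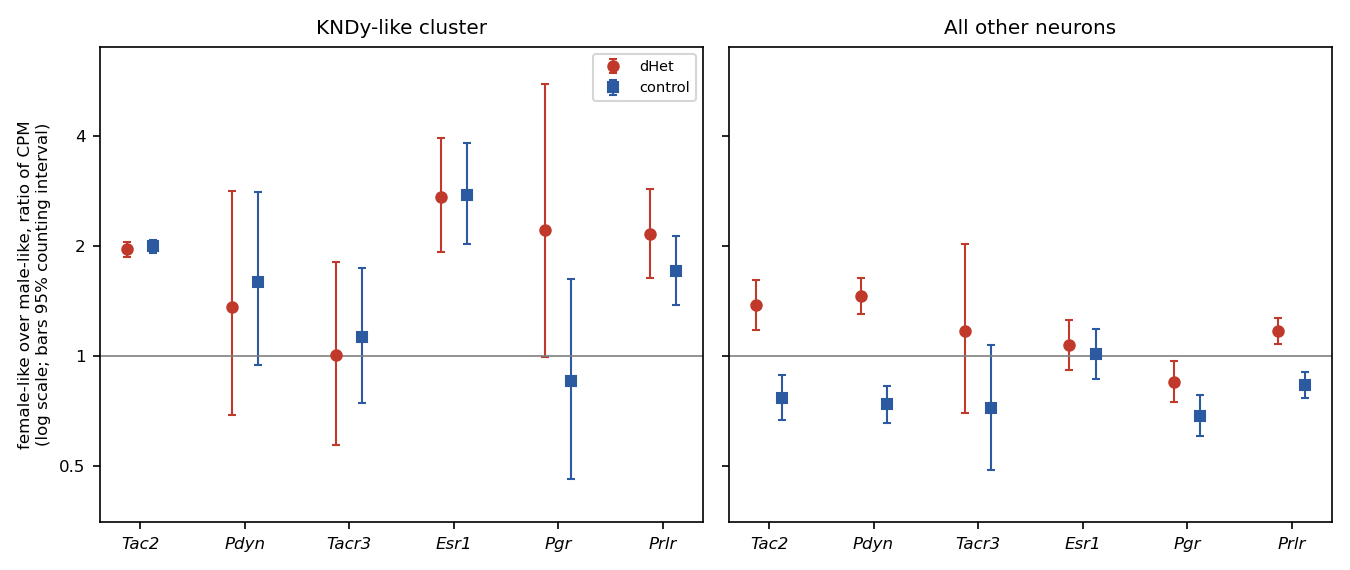
Ratio of CPM in female-like over male-like cells for 6 genes, in the KNDy-like cluster (left) and all other neurons (right), on a log axis with exact 95% counting intervals and the dHet and control libraries side by side. Within the cluster Tac2 (1.96 in dHet, 1.99 in control) and Esr1 (2.73 in dHet, 2.75 in control) lay above 1 in both libraries, as did Prlr (2.15 in dHet, 1.71 in control).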

How the data were processed

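Droplet single-cell RNA libraries of sorted cells, 1 for dHet and 1 for control, were analysed from the deposited tables. Per the file headers, the authors made UMI counts per gene and barcode with Cell Ranger 3.0.2, and the build was mm10 per the submitters' processing notes. The main cells were those of the authors' merged count table, 20210 of 31053 genes, with median depths of 17175 UMIs in dHet and 16508 in control. The per-library matrices shared 5 barcodes. Both libraries were clustered together in scanpy 1.11.5 on 2000 variable genes (30 components, 15 neighbours, Leiden resolution 1). The 6 members, Irx3, Irx5, mitochondrial, ribosomal protein, haemoglobin, Xist, Tsix and Y-linked genes were left out. Clusters were named from marker lists, the neuron types by their leading genes. Scrublet called 0.533% of dHet and 0.661% of control cells doublets, which were kept and left out as an alternative.

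Levels are UMIs summed per library and class as CPM, with exact Poisson intervals. Shares have exact Clopper-Pearson and ratios exact conditional binomial 95% intervals. Log2 differences had 5 CPM added to each side, which shrinks those of low genes. The steps were tested on simulated data: of 189 genes changed 2-fold in a simulation of the KNDy-like cluster, 90.5% passed 1.5-fold, as did 95 of the unchanged genes among 7840. The simulation held counting error only. It cannot show how the fold rule or the intervals behave when cells, mice or libraries vary. The members and the gene lists were chosen with earlier results of these data known. Named from each list were fixed genes and up to 4 genes with at least 50 UMIs in the KNDy-like cluster and the largest log2 difference there, of which the text gives some, and for each member the 3 genes most like it over clusters. A further gene of the lists is not reported here. Promoter sequences are from RefSeq for GRCm38.p6, in which all 6 members matched, and gene positions from GENCODE M21.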

Additional observations from a re-analysis of the deposited data

Results flagged for a closer look

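Pdyn over all neurons went in opposite directions in the sex calls, at 1.39 (1.26 to 1.53) of control in female-like cells of dHet and 0.742 (0.655 to 0.841) in male-like cells of dHet. That difference was not tested. Outside neurons, Tac2 in dHet cells classed as tanycytes had 105.9 CPM, against 1.66 CPM in control, and a single cell held 225 of the 247 UMIs. In the dHet cells classed as pars tuberalis or pituitary it had 799 CPM, against 1.85 CPM in control, and all 106 UMIs were in a single one of 14 cells. These classes entered no comparison of the report. Among neurons, a single dHet cell likewise held 85 of 90 Tac2 UMIs in the Vip and Avp cluster and another 106 of 114 in the Agrp and Npy cluster, and both were seen after the values were known.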

How the results depend on the processing

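No paired analysis was possible because each genotype had 1 library. Values here are log2 differences, dHet over control, with CPM added as in the report, unless named otherwise. Over all neurons, Tac2 was -0.53 and became -0.46 with cells weighted equally, -0.47 thinned to 4000 UMIs, -0.43 in the cells of the per-library matrices, -0.87 in female-like cells only, past 1.5-fold, and -0.26 in male-like cells only. Pdyn was 0.10 and became -0.034, -0.021, 0.011, 0.40 and -0.36 under the same 5 alternatives, so its direction depends on them. Tacr3 was -0.31 and became -0.11 with a pseudocount of 20 CPM, -0.44 with cells weighted equally and -0.41 thinned. In female-like cells only, Esr1 became -0.26 and Pgr 0.025, and in male-like cells only Pgr became -0.24. Kiss1 became -0.071 thinned. In the KNDy-like cluster the single thinning draw gave -0.75 for Kiss1 (1 UMI in dHet, 3 in control) and -1.24 for Pdyn, both past 1.5-fold. It gave -0.18 for Tac2, -0.31 for Esr1 and -0.56 for Pgr. In male-like cells only, Kiss1 was -0.66, a value set by the CPM added to 0 UMIs in dHet and 2 in control, and Pgr -0.75 from 8 UMIs in dHet and 19 in control, both past 1.5-fold. Tac2 became -0.051 with the members eligible for clustering and -0.71 in cells gated on Kiss1, Tac2 and Nr5a2 in place of a cluster, where Esr1 was -0.32. That gate held 67 dHet and 85 control cells, of which 48 in dHet and 70 in control lay in the cluster. The KNDy-like share ratio was 1.04 in male-like cells only. The other alternatives kept the value within its counting interval, 61 of 78 over neurons, 68 of 78 in the cluster and 7 of 8 for the share, as did 65 of 83 for shares of UMIs and 45 of 55 for the sex contrast. All 16 for pairs with Tac2 in the cluster moved: Tac2 with Esr1 was in 40.8% of cells in dHet and 40.0% in control thinned, and in 31.1% in dHet and 40.6% in control at 3 or more UMIs of each. Of alternatives added after seeing the data, the log2 female-like over male-like difference of Esr1 ran from 1.27 to 1.69 in dHet and 1.00 to 1.71 in control, and that of Tac2 from 0.83 to 1.15 in dHet and 0.67 to 1.26 in control. That of Pdyn in control was -0.028 in the gate and that of Pgr in dHet was -0.41 thinned, both against the direction in the report. With Pdyn and Tacr3 at 48 to 110 UMIs per library in the cluster, depth limits what could be seen, and the Kiss1 gene models limit that gene. The causes of these changes were not tested.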
